A study of Mus musculus with 16 samples.

Results

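The early growth response (EGR) factors Egr1, Egr2 and Egr3 are zinc-finger transcription factors that many cells switch on within minutes of a growth or stress signal, largely through ERK signalling and the serum response factor SRF. Nab1 and Nab2 encode corepressors that bind EGR proteins and restrain transcription from their target genes; NAB2 recruits the CHD4/NuRD chromatin complex, and Nab2 is itself known as an EGR target. EGR2 with the NAB proteins is best known for driving myelin genes in Schwann cells. The 5 genes were taken from the table by symbol. All 5 were found among the 38720 entries of the count table, and all 5 were among the 16842 genes that passed a filter on low counts.

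RNA was sequenced from adipose progenitors, the precursor cells in fat that can become adipocytes, in a design that crossed genotype with fat depot. The groups, with 4 libraries each, were visceral fat (VAT) of Nr4a1 knockout mice (KO), VAT of wild-type mice (WT), subcutaneous fat (SAT) of KO, and SAT of WT, all from mice 4 weeks old. Nr4a1 encodes a nuclear receptor that is itself an immediate early gene. The KO genotype is labelled B6;129S2-Nr4a1tm1Jmi/J and is carried by the whole animal, while the strain field reads C57BL/6J for all 16 libraries, so knockout and any difference in strain background cannot be told apart. The column names carry the word MACS, a magnetic sort, and no source used here gives the sorting markers, sex, litter or day. The labels call the libraries biological replicates without tying them to individual mice, so a p-value covers the spread among these libraries and no more.

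Library totals ran from 34655519 to 55551845 counts. Nr4a1 stood at 297 to 327 CPM (counts scaled to a common library size by TMM) in KO VAT, against 1431 to 1648 CPM in WT VAT, and at 195 to 209 CPM in KO SAT, against 997 to 1211 CPM in WT SAT. It fell by 2.31 ± 0.08 (log2 fold change ± SE) in KO VAT (adjusted p = 5.53e-12) and by 2.43 ± 0.08 in KO SAT (adjusted p = 5.34e-12), and the part of the gene covered by the remaining reads was not examined. WT SAT replicate 3 lay farthest from its own group, with a mean correlation of 0.966, against 0.983 to 0.994 for the other 15 libraries. The 9 markers of progenitors and fibroblasts summed to 36130 to 40825 CPM in KO VAT and 32265 to 39290 CPM in WT VAT. In SAT they summed to 98298 to 117591 CPM in KO and 86892 to 100591 CPM in WT, without overlap between the depots. The 10 lymphocyte markers summed to at most 5.34 CPM, and the 9 macrophage and myeloid markers found in the table summed to at most 66.0 CPM. In bulk RNA, fewer cells of a type and less RNA per cell cannot be told apart.

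Promoter sequence was looked up for the members in RefSeq's table for GRCm38.p6, the assembly also called mm10, in which each window runs from 250 bases before to 50 bases after a start site. It matched 3 of the 5 members, Egr2, Nab1 and Nab2; Egr1 and Egr3 have no entry. Each 300-base window was searched on both strands for the EGR site GCGNGGGCG, the CArG box bound by SRF, the cyclic AMP response element TGACGTCA and the NBRE AAAGGTCA, to which NR4A receptors bind as monomers. Of all 32851 promoter windows, 5.552% held an EGR site, 1.629% a CArG box, 1.79% a cyclic AMP response element and 1.507% an NBRE. The Egr2 stretch shown here, chr10:67537619-67537868 on the plus strand, ends at the base before the start site at 67537869, and is printed because Egr2 is the member called between the genotypes. Capitals mark a CArG box 72 to 63 bases before that start:
Egr2 promoter: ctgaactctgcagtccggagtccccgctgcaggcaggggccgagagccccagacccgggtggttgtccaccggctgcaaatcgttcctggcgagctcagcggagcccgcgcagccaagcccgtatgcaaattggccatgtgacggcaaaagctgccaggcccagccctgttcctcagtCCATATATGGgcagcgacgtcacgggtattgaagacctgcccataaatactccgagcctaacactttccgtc
Egr2 has 5 listed start sites, and 4 of its 5 windows, which overlap in part, held a CArG box. The windows of the starts at 67537869, 67537870 and 67537930 hold the same box, the one marked above. That of the start at 67537566 holds another. None of the 5 held an EGR site, a cyclic AMP response element or an NBRE, which says only that these letters are not in these windows.

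The Nab1 window, with its start site at position 52500448 of chromosome 1 on the minus strand, held 3 EGR sites and none of the other motifs. They are printed, in capitals with 10 bases on each side, because Nab1 is the corepressor gene called between the depots and EGR proteins bind such sites; the first is the motif read on the opposite strand:
Nab1 chr1:52500571-52500599: gccccgcggcCGCCCACGCcgggatctgc
Nab1 chr1:52500539-52500567: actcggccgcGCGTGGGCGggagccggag
Nab1 chr1:52500468-52500496: gcggggcgggGCGGGGGCGgcggaggtgg
The Nab2 window, with its start site at position 127666703 of chromosome 10 on the minus strand, held none of the 4 motifs. The GENCODE span of Nab2 begins upstream of that start, at 127668568, and the sequence there was not searched. The result therefore says only that these letters are not in this window. In the mm10 annotation of GENCODE vM21, Egr2 spans chr10:67535475-67542188 (plus strand), Egr3 chr14:70077203-70082614 (plus), Nab1 chr1:52457294-52500679 (minus) and Nab2 chr10:127660918-127668568 (minus). The 3 Nab1 stretches lie inside the GENCODE span of Nab1, which begins at 52500679, upstream of the RefSeq start site at 52500448. A motif match is a description of the letters, and binding was not measured.

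Egr1 dominated the family. Per kilobase of exon, Egr1 stood at 482 ± 10.1 CPM in KO VAT, 576 ± 11.8 in WT VAT, 525 ± 62.0 in KO SAT and 530 ± 7.22 in WT SAT (SD, n = 4 each). It was the gene of rank 31 by mean CPM among all entries and took 0.184% to 0.293% of a library's counts. Egr1 made up 95.4 ± 0.89% of the per-kilobase EGR signal in KO VAT, 96.6 ± 0.28% in WT VAT, 96.7 ± 0.45% in KO SAT and 97.9 ± 0.25% in WT SAT. In all 4 groups the order per kilobase ended with Nab2 and then Egr3, the scarcest member at 0.856 to 1.45 CPM per kilobase in the group means.

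Nab1 and Egr2 lay between these extremes, and their order was not the same in every group. Nab1 had 24.1 ± 1.98 CPM per kilobase in KO VAT, 25.4 ± 0.85 in WT VAT, 15.6 ± 1.06 in KO SAT and 17.3 ± 2.43 in WT SAT. Egr2 had 22.1 ± 3.95 in KO VAT, 19.0 ± 1.31 in WT VAT, 16.7 ± 2.13 in KO SAT and 10.7 ± 1.13 in WT SAT (SD, n = 4 each). The difference between the Nab1 and Egr2 means was smaller than the SD of Egr2 but not that of Nab1 in KO VAT and KO SAT, and larger than either SD in both WT groups. Nab2 had 7.18 ± 0.75, 6.71 ± 0.39, 7.37 ± 1.15 and 6.78 ± 0.65 CPM per kilobase in the same order of groups, below Egr2 and Nab1 in each.

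**Figure D1:**
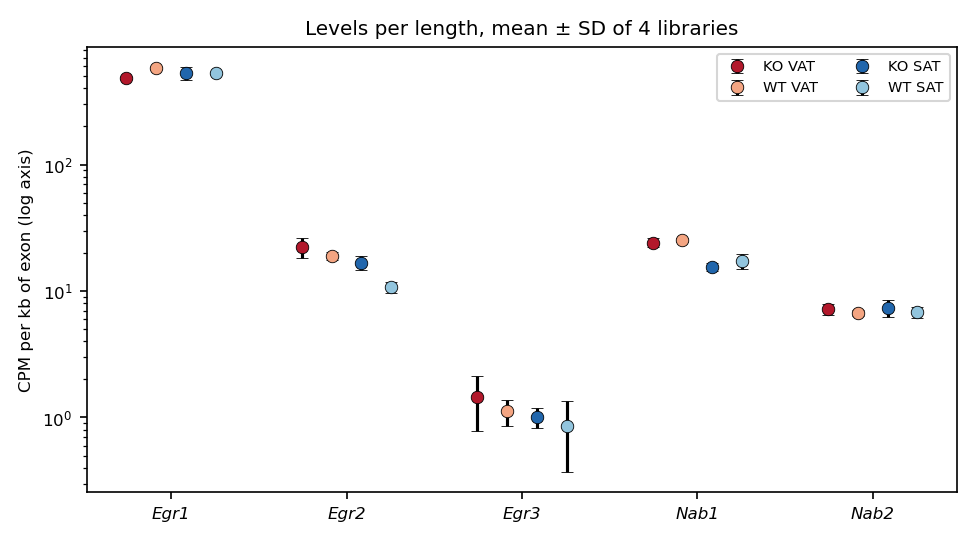
Level per kilobase of exon (CPM per kb, log axis) of the 5 members in KO VAT, WT VAT, KO SAT and WT SAT; points are means and bars SD of 4 libraries. Egr1 lies between 482 and 576 CPM per kb, Nab1 and Egr2 between 10.7 and 25.4, Nab2 between 6.71 and 7.37 and Egr3 between 0.856 and 1.45.

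The first comparison asked which members differed between KO and WT progenitors. In SAT, 1 of the 5 members was called, Egr2, which was higher in KO; over all tested genes 5.89% were called in that comparison (called means an adjusted p under 0.05 in edgeR's quasi-likelihood test). Egr2 had 62.2, 46.3, 57.9 and 61.0 CPM in KO SAT, against 31.8, 40.9, 35.2 and 37.7 CPM in WT SAT. Every KO SAT library was above every WT SAT library. The rise was 0.64 ± 0.12 on the log2 scale, or 1.56-fold (adjusted p = 0.00414). Leaving out any 1 of the 8 libraries, and the other settings tried, gave 0.58 to 0.73 with adjusted p of at most 0.0206. Of the marker lists in the same libraries, endothelium summed to 230 to 309 CPM in KO and 206 to 231 CPM in WT (1 of 8 markers, Kdr, was called, at 0.95 ± 0.24, while Pecam1, Tie1 and Cldn5 averaged under 1 CPM in both groups and Pecam1, Cdh5, Tie1, Emcn and Cldn5 had fold changes below 0), pericytes and smooth muscle to 2158 to 2979 CPM in KO and 2666 to 4567 CPM in WT, and myeloid cells to 29.4 to 37.8 CPM in KO and 24.7 to 37.1 CPM in WT. Their part in the Egr2 difference was not tested.

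The other 4 members were not called in SAT. Egr1 had 2679, 2271, 2023 and 2451 CPM in KO SAT, against 2356, 2402, 2410 and 2346 CPM in WT SAT. The means were nearly equal, at 2356 ± 278 CPM in KO and 2379 ± 32.4 CPM in WT (SD, n = 4 each; log2 fold change -0.01 ± 0.08, adjusted p = 0.94), while the coefficient of variation was 11.8% in KO and 1.36% in WT. Nab1, at 62.1, 60.2, 70.2 and 63.0 CPM in KO SAT, against 61.5, 83.6, 64.3 and 73.5 CPM in WT SAT, overlapped between the genotypes (-0.15 ± 0.09, adjusted p = 0.339). Nab2, at 19.7, 20.0, 26.8 and 20.2 CPM in KO SAT, against 21.7, 19.3, 17.5 and 21.2 CPM in WT SAT, also overlapped (0.12 ± 0.11, adjusted p = 0.523).

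Egr3 had few counts and the widest spread. It stood at 5.38, 3.39, 4.57 and 4.41 CPM in KO SAT, against 3.99, 4.18, 0.868 and 6.04 CPM in WT SAT. The low value belongs to WT SAT replicate 3, with 26 counts, the library that lay farthest from its group. The log2 fold change was 0.22 ± 0.40 (adjusted p = 0.781), and -0.09 without that library. Across the 16 libraries, the SD of Egr3 around its group means was at or above that of 99.6% of tested genes that averaged 5 CPM or more. Egr3 itself averaged less, with group means of 6.40 CPM in KO VAT, 4.93 in WT VAT, 4.44 in KO SAT and 3.77 in WT SAT. The rank therefore sets Egr3 against better-counted genes, and its SD includes the library with 26 counts.

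**Figure D2:**
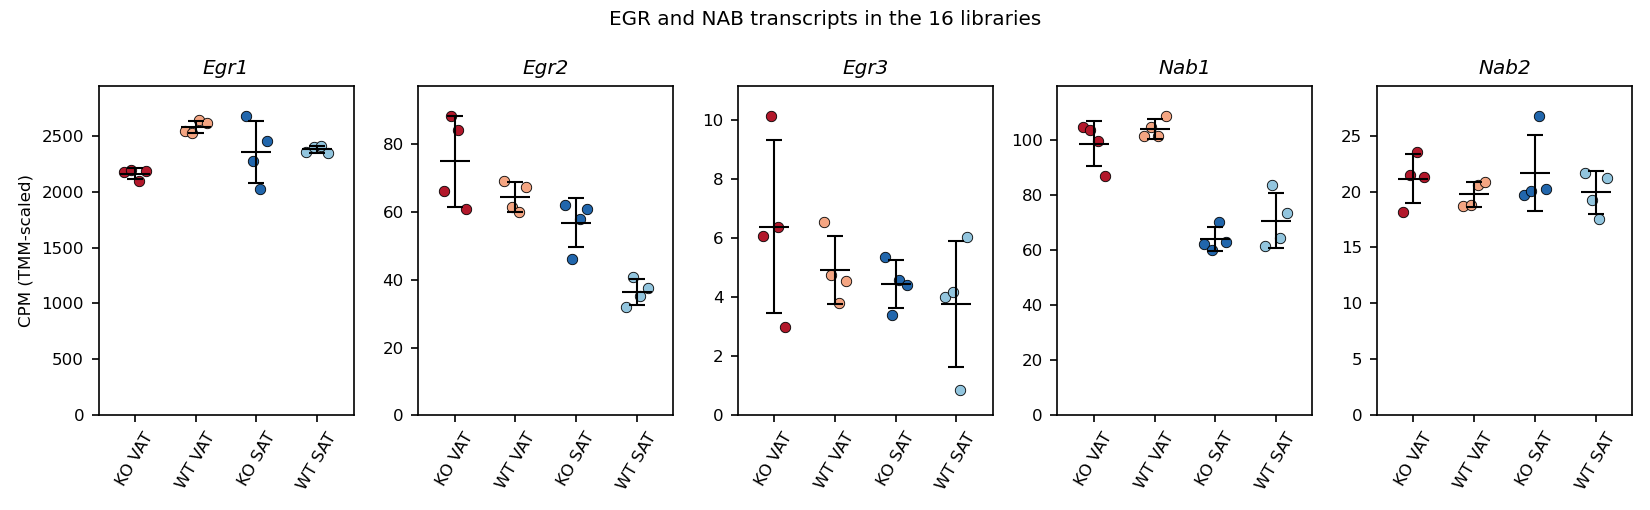
CPM (TMM-scaled, linear axis from 0) of each member in the 16 libraries, grouped as KO VAT, WT VAT, KO SAT and WT SAT; points are libraries, bars mean ± SD (n = 4). Egr2 in KO SAT lies at 46.3 to 62.2 CPM, above 31.8 to 40.9 CPM in WT SAT, and Nab1 is higher in every VAT library than in any SAT library.

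In VAT, none of the 5 members was called between KO and WT by edgeR, where 4.1% of all tested genes were called; 1 member, Egr1, had an unadjusted p under 0.05, and DESeq2 called that same member. Egr1 stood at 2180, 2192, 2096 and 2186 CPM in KO VAT, against 2545, 2529, 2639 and 2612 CPM in WT VAT. The groups did not overlap, and the log2 fold change was -0.25 ± 0.08 (edgeR adjusted p = 0.0765). The adjusted p was 0.00605 with DESeq2, 0.0527 to 0.156 under the other settings, and 0.122 to 0.161 when 1 library was left out.

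Egr2 had 66.2, 88.4, 84.3 and 61.1 CPM in KO VAT, against 69.2, 61.6, 60.1 and 67.5 CPM in WT VAT. The groups overlapped, and the log2 fold change was 0.22 ± 0.12 (adjusted p = 0.377). Nab1 (104.5, 103.6, 99.5 and 86.9 CPM in KO VAT, against 101.5, 104.5, 101.3 and 108.7 CPM in WT VAT) gave -0.08 ± 0.09 (adjusted p = 0.733). Nab2 (18.2, 21.5, 23.5 and 21.3 CPM in KO VAT, against 18.7, 18.8, 20.6 and 20.9 CPM in WT VAT) gave 0.10 ± 0.11 (adjusted p = 0.708). Egr3, at 6.07, 10.2, 6.38 and 3.0 CPM in KO VAT, against 6.57, 4.75, 3.82 and 4.57 CPM in WT VAT, gave 0.38 ± 0.39 (adjusted p = 0.684).

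Whether the KO effects differed between the depots was tested with an interaction, VAT minus SAT. None of the 5 members was called, where 0.267% of all tested genes were. Egr2 (-0.43 ± 0.17, edgeR adjusted p = 0.244) and Egr1 (-0.24 ± 0.11, adjusted p = 0.294) were the 2 members with an unadjusted p under 0.05, and DESeq2 called none. The KO effects on Egr2 in VAT and SAT are therefore not shown to differ.

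Nab1 and Egr2 also differed by depot. Between VAT and SAT of WT mice, 2 of the 5 members were called, Egr2 and Nab1, both higher in VAT, where 36.7% of all tested genes were called. Between VAT and SAT of KO mice the same 2 members were called, where the background was 43.3%. These comparisons use the libraries of the genotype comparisons again, so the values are not independent of them. Egr2 averaged 64.6 ± 4.44 CPM in WT VAT and 36.4 ± 3.84 CPM in WT SAT (0.83 ± 0.12, adjusted p = 3.50e-05), and the libraries did not overlap. In KO it averaged 75.0 ± 13.4 CPM in VAT and 56.8 ± 7.25 CPM in SAT (0.40 ± 0.12, adjusted p = 0.0118), with 1 VAT library, at 61.1 CPM, inside the SAT range. That call was lost without KO VAT replicate 2 (0.31, adjusted p = 0.0516).

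Nab1 averaged 104 ± 3.49 CPM in WT VAT and 70.7 ± 9.96 CPM in WT SAT (0.56 ± 0.09, adjusted p = 9.19e-05). In KO it averaged 98.6 ± 8.10 CPM in VAT and 63.9 ± 4.35 CPM in SAT (0.63 ± 0.09, adjusted p = 2.06e-05; SD, n = 4 each). No VAT library overlapped any SAT library of its genotype, and every setting tried kept both calls. Nab2 did not move with Nab1, at -0.01 ± 0.11 in WT (adjusted p = 0.93) and -0.04 ± 0.11 in KO (adjusted p = 0.799). Nab2 accordingly made up 23.1 ± 2.69% of the per-kilobase NAB signal in KO VAT, 20.9 ± 0.89% in WT VAT, 32.0 ± 1.86% in KO SAT and 28.4 ± 3.57% in WT SAT.

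Egr1 was called between the depots in neither genotype: the log2 fold change was -0.12 ± 0.08 in KO (adjusted p = 0.215), with overlap, and 0.12 ± 0.08 in WT (adjusted p = 0.254), where the libraries did not overlap. The KO value was called without KO SAT replicate 3 (-0.19, adjusted p = 0.0442). Egr3 gave 0.53 ± 0.39 in KO (adjusted p = 0.294) and 0.37 ± 0.39 in WT (adjusted p = 0.506). Markers of progenitors and of other cell types differed between the depots. Of the 9 progenitor and fibroblast markers, 7 were called lower and 1 higher in VAT of KO, where 43.3% of all tested genes were called. In VAT of WT, 6 were called lower and 1 higher, where 36.7% of all tested genes were called. The higher marker was Pdgfrb in both genotypes, and Dcn was called in neither. The 8 mesothelium markers summed to 748 to 1506 CPM in KO VAT and 744 to 1510 CPM in WT VAT, against 6.70 to 10.02 CPM in KO SAT and 7.65 to 12.8 CPM in WT SAT, and all 8 were called in each genotype. The 10 Schwann cell markers, whose lineage uses Egr2, summed to 41.0 to 53.1 CPM in KO VAT and 42.7 to 62.4 CPM in WT VAT, against 283 to 388 CPM in KO SAT and 321 to 597 CPM in WT SAT, the opposite direction to Egr2. Pericyte and smooth muscle markers summed to 5103 to 6630 CPM in KO VAT and 5496 to 5993 CPM in WT VAT, against 2158 to 2979 CPM in KO SAT and 2666 to 4567 CPM in WT SAT. The part of these cells in the depot differences was not tested.

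**Figure D3:**
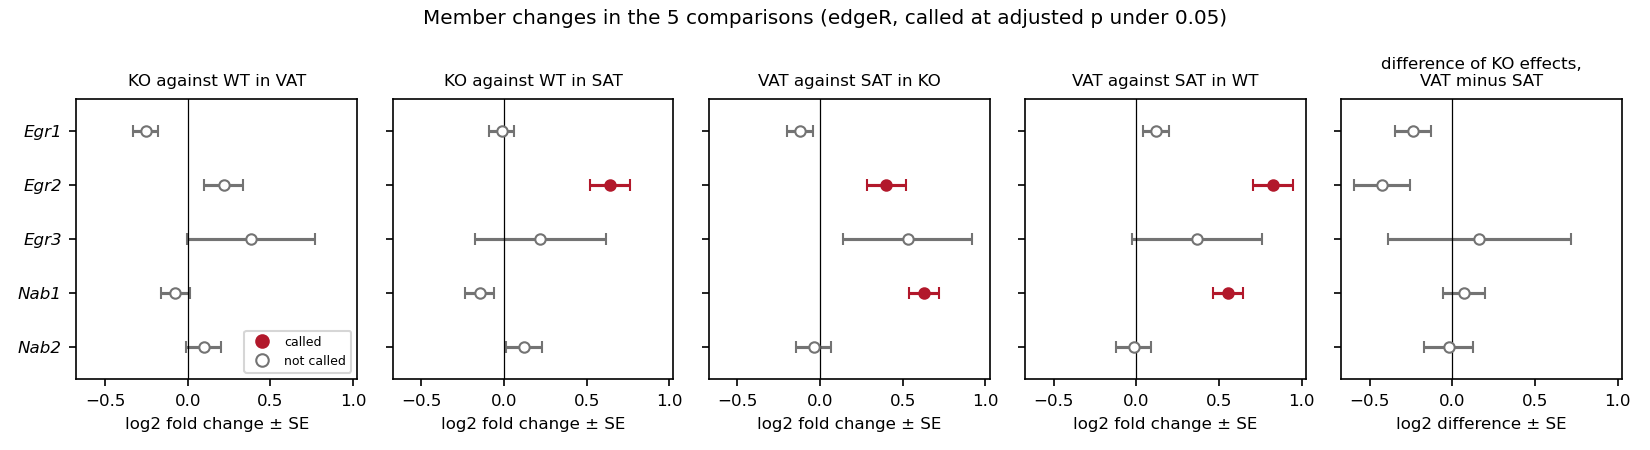
Fitted log2 fold change ± SE of each member in the 5 comparisons; filled points are called at adjusted p under 0.05. Egr2 is called in 3 comparisons, Nab1 in the 2 depot comparisons, and Egr1, Egr3 and Nab2 in none.

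The levels of activator and corepressor transcripts were also set against each other. Per kilobase, the ratio of Egr2 to Nab1 was 0.916 ± 0.13 in KO VAT and 0.749 ± 0.05 in WT VAT, with overlap, and 1.07 ± 0.13 in KO SAT and 0.623 ± 0.03 in WT SAT, without overlap (SD, n = 4 each). The summed EGR level over the summed NAB level was 16.2 ± 1.08 in KO VAT, 18.6 ± 0.56 in WT VAT, 23.9 ± 4.36 in KO SAT and 22.7 ± 2.29 in WT SAT. These are transcript ratios, and protein was not measured.

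Nab2 exons share bases with 3 genes on the opposite strand. No source used here gives the strand setting of the counts, so whether reads there were told apart is not known. The overlap is 40 bases with Stat6, 151 bases with Nemp1 (listed in the table as Tmem194) and 1050 bases with Gm16229, which had 14 counts over all libraries. Stat6 had group means of 133 to 145 CPM and Tmem194 had 202 to 571 counts per library.

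Between replicates, Egr2 varied together with Egr3 and with Nab1. The Pearson r of deviations from the group means over the 16 libraries, which share library depth and preparation, was 0.57 for Egr2 and Egr3 (0.76 without WT SAT replicate 3), 0.59 for Egr2 and Nab1 and 0.52 for Egr3 and Nab1. Egr1 and Nab2 gave -0.62, which rested on 1 library: without KO SAT replicate 3, the lowest in Egr1 and the highest in Nab2 of its group, it was -0.17. Among 10693 genes that averaged 5 CPM or more, Jun, an AP-1 subunit, was among the 3 genes most like Egr1 (r = 0.84), with Polg2 (0.89) and Aldh9a1 (0.80). The genes most like Egr2 were Itga6, an integrin subunit (0.92), Apobec1 (0.86) and Tmem135 (0.83). Nab1 was followed most closely by Kpna4 (0.90), Appl1 (0.87) and Lipo1 (0.87), Nab2 by Ephb4 (0.86), Fam129b (0.83) and Mapk7, which encodes ERK5 (0.82), and Egr3 by Cdc27 (0.97), Sde2 (0.97) and Txnrd1 (0.97).

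**Figure D4:**
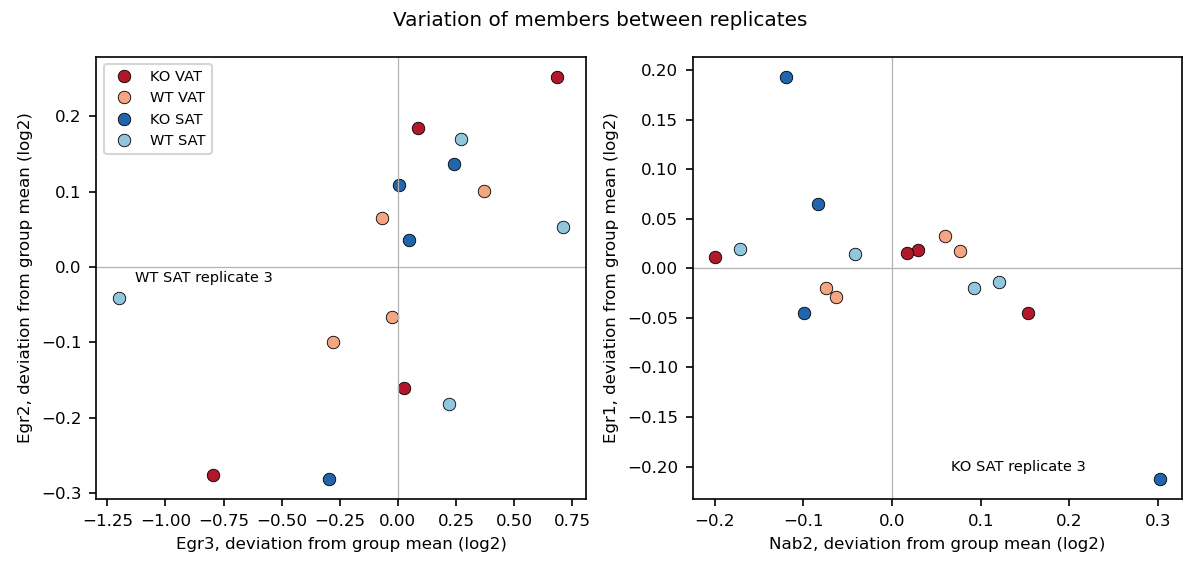
Deviation of each library from its group mean (log2) for Egr3 against Egr2 and for Nab2 against Egr1, 16 libraries colored by group. WT SAT replicate 3 stands apart in Egr3, and KO SAT replicate 3 lies alone at high Nab2 and low Egr1.

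The closest relatives of the family differed by depot. Egr4, another EGR factor, had 25 to 45 counts in KO VAT and 17 to 44 in WT VAT, against 0 to 6 in KO SAT and 2 to 6 in WT SAT, and was higher in VAT by 3.50 ± 0.57 in KO (adjusted p = 7.85e-05) and 2.58 ± 0.55 in WT (adjusted p = 0.00125). Wt1, a zinc-finger factor that binds similar sites and is a known mesothelial and visceral fat gene, had 3879 to 4361 counts in KO VAT and 4397 to 5465 in WT VAT, against 0 to 5 in KO SAT and 0 to 1 in WT SAT. Neither was called between the genotypes.

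Genes upstream of the EGR factors were compared between the genotypes, where edgeR called 4.1% of all tested genes in KO VAT and 5.89% in KO SAT. Of 20 genes of the SRF, ternary complex factor and ERK pathway, none was called in KO VAT by edgeR or DESeq2 (3 had an unadjusted p under 0.05), while in KO SAT 1 was higher, the kinase gene Rps6ka3 (0.40 ± 0.11, adjusted p = 0.0496), and 1 lower, Mapk3, which encodes ERK1 (-0.26 ± 0.07, adjusted p = 0.0496). Rps6ka3 was no longer called without any 1 library of SAT but WT SAT replicate 4, and Mapk3 without any 1 but WT SAT replicate 2, with adjusted p up to 0.138 and 0.143. Both calls were also lost with no filter on low counts and in a fit of only the 2 SAT groups, and that of Mapk3 with limma-voom (adjusted p = 0.0532). The list's median was 0.04 in SAT, beside -0.01 for all tested genes. None of 13 CHD4/NuRD genes, through which NAB2 represses, was called in either depot by edgeR or DESeq2. An unadjusted p under 0.05 was found for 2 in VAT and 1 in SAT. For lists of 13 and 20 genes, no called gene is close to the shares over all tested genes. Between the depots the SRF and ERK list held called genes of both directions. Srf was higher in VAT of both genotypes (0.51 ± 0.08 in KO and 0.36 ± 0.08 in WT, adjusted p = 7.42e-05 and 0.00215). So was the ternary complex factor Elk3 (0.66 ± 0.10 in KO and 0.66 ± 0.10 in WT, adjusted p = 3.48e-05 and 4.52e-05). Rps6ka3 was lower in VAT of both (-0.96 ± 0.12 in KO and -0.61 ± 0.11 in WT, adjusted p = 3.08e-06 and 0.000426). The list's median was -0.03 in KO and -0.02 in WT, beside 0.0174 and -0.00439 for all tested genes.

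The called genes among other immediate early genes were mostly lower in KO. Over all tested genes, 4.1% were called in VAT and 5.89% in SAT, and more were higher than lower in KO of both depots. Of the 33 other immediate early genes, 6 were lower and 1 higher in KO VAT (list median -0.16, beside -0.00429 for all tested genes). In KO SAT, at a share close to that of all tested genes, 3 were lower and none higher (median -0.20, beside -0.01). In SAT these were the AP-1 genes Junb, at 1536 ± 84.0 CPM in KO and 1991 ± 165 CPM in WT (-0.37 ± 0.07, adjusted p = 0.00541), and Jund (-0.45 ± 0.12, adjusted p = 0.0308), and Maff, a small MAF factor (-0.49 ± 0.10, adjusted p = 0.00963). Jund was lost without KO SAT replicate 2, 3 or 4 or WT SAT replicate 1 or 3 (adjusted p up to 0.0985), and 5 genes were lower without KO SAT replicate 1 or WT SAT replicate 2. In VAT, Jun stood at 2327 ± 147 CPM in KO and 2909 ± 49.1 CPM in WT (-0.32 ± 0.08, adjusted p = 0.0276), the phosphatase gene Dusp1 at 1023 ± 54.2 CPM in KO and 1390 ± 82.9 CPM in WT (-0.44 ± 0.11, adjusted p = 0.0312), and Nr4a2, a relative of Nr4a1, was higher (0.47 ± 0.12, adjusted p = 0.035). In VAT, 4 of 6 adipocyte markers were called higher in KO, beside 4.1% of all tested genes called in either direction. The adipocyte list summed to 891 to 1358 CPM in KO and 913 to 1105 CPM in WT, and the part of such cells was not tested.

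The VAT counts were fragile. The 6 lower genes became 0 without WT VAT replicate 1, 3 or 4, 1 without KO VAT replicate 1, 3 or 4, and 2 without WT VAT replicate 2. Jun was lost without KO VAT replicate 1 or 3 or any 1 WT VAT library (adjusted p up to 0.0829), and Dusp1 without KO VAT replicate 1, 2 or 4 or WT VAT replicate 1, 3 or 4 (up to 0.0978). Nr4a2 was lost without KO VAT replicate 1 or 2 or WT VAT replicate 2, 3 or 4 (up to 0.111). DESeq2 called 10 lower in VAT and 7 in SAT, fitting with no filter on low counts left 1 lower in VAT, without Jun, and fitting only the 2 SAT groups left 1 lower in SAT, without Junb and Jund.

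Reported EGR target genes moved in both directions. Of 33, 1 was higher and 6 lower in KO SAT (median -0.08, beside -0.01), and 3 higher and 1 lower in KO VAT (median -0.06, beside -0.00429). The shares called over all tested genes were 5.89% in SAT and 4.1% in VAT, with more genes higher than lower in both. Ngfr, a neurotrophin receptor gene, was higher in KO of both depots. It stood at 8.97 ± 2.37 CPM in KO VAT and 4.01 ± 0.76 CPM in WT VAT (1.16 ± 0.24, adjusted p = 0.0105). In SAT it stood at 15.8 ± 4.51 CPM in KO and 8.01 ± 2.50 CPM in WT (0.97 ± 0.24, adjusted p = 0.0225). The adipogenic factor Cebpb (-0.55 ± 0.13, adjusted p = 0.0177) and the lipase gene Pnpla2 (-0.48 ± 0.11, adjusted p = 0.0191) were lower in KO SAT, and in KO VAT Vegfa was higher (0.42 ± 0.10, adjusted p = 0.0263) and Ndrg1 lower (-0.35 ± 0.08, adjusted p = 0.0216).

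These calls also depended on single libraries. The 6 lower genes in SAT became 1 without KO SAT replicate 3, 0 without KO SAT replicate 4 and 3 without WT SAT replicate 2. Ngfr in SAT was lost without KO SAT replicate 1, 3 or 4 or WT SAT replicate 1, 3 or 4 (adjusted p up to 0.0722), whereas in VAT it was called without any 1 library. Cebpb was lost without KO SAT replicate 3 or 4 (up to 0.0557), and Pnpla2 without KO SAT replicate 2, 3 or 4 or WT SAT replicate 2 (up to 0.0664). In VAT, Ndrg1 was lost without KO VAT replicate 1, 2 or 4 or WT VAT replicate 4 (up to 0.078), and Vegfa without KO VAT replicate 1, 2 or 4 or WT VAT replicate 3 or 4 (up to 0.0903). The higher count in VAT was 1 without WT VAT replicate 3, and 2 genes were lower without KO VAT replicate 3 or with DESeq2. Fitting only the 2 SAT groups left 1 lower gene in SAT and ended the calls of Cebpb, Pnpla2 and Ngfr there.

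The EGR2 targets of Schwann cell myelination did not follow Egr2 in SAT. There the Schwann markers summed to 283 to 388 CPM in KO and 321 to 597 CPM in WT. None of the 11 targets was called by edgeR, beside 5.89% of all tested genes (median -0.40, beside -0.01). Of the 11, 6 had an unadjusted p under 0.05, and DESeq2 called 2. In KO SAT, 1 was called lower without KO SAT replicate 1, WT SAT replicate 1 or WT SAT replicate 4. Between the depots, 43.3% of all tested genes were called in KO and 36.7% in WT. Of the 11 targets, 8 in KO and 9 in WT were lower in VAT, among them the myelin genes Mbp (-2.24 ± 0.19 in KO and -2.40 ± 0.19 in WT) and Mag (-2.84 ± 0.29 in KO and -3.43 ± 0.29 in WT), with edgeR adjusted p of at most 4.45e-07. Egr2 was higher in VAT, and these genes were lower there.

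The other lists held called genes of both directions between the depots, beside 43.3% of all tested genes called in KO and 36.7% in WT. Of the 20 SRF and ERK genes, 4 were higher and 3 lower in VAT of KO, and 6 higher and 3 lower in VAT of WT; the lower count was 1 without KO VAT replicate 4 in KO, and 5 without WT SAT replicate 2 and 1 without WT VAT replicate 1 in WT. Of the 13 CHD4/NuRD genes, 4 were higher and 4 lower in KO, and 2 higher and 5 lower in WT, led by the histone-binding subunit gene Rbbp7 (0.84 ± 0.10 in KO and 0.90 ± 0.10 in WT, adjusted p = 3.31e-06 and 1.95e-06). The lower CHD4/NuRD count was 2 without KO VAT replicate 1 in KO, and 3 without WT SAT replicate 1 or WT VAT replicate 1 or 2 in WT. Of the 33 reported EGR targets, 11 were higher and 9 lower in KO, and 8 higher and 11 lower in WT, the collagen gene Col1a2 falling by 1.70 ± 0.11 in KO and by 1.67 ± 0.11 in WT (adjusted p = 1.35e-09 and 1.86e-09). Of the 33 other immediate early genes, 10 were higher and 7 lower in KO (11 lower without KO SAT replicate 3), and 9 higher and 4 lower in WT, with Maff higher by 1.34 ± 0.10 in KO and 1.001 ± 0.10 in WT (adjusted p = 2.03e-08 and 7.29e-07).

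**Figure D5:**
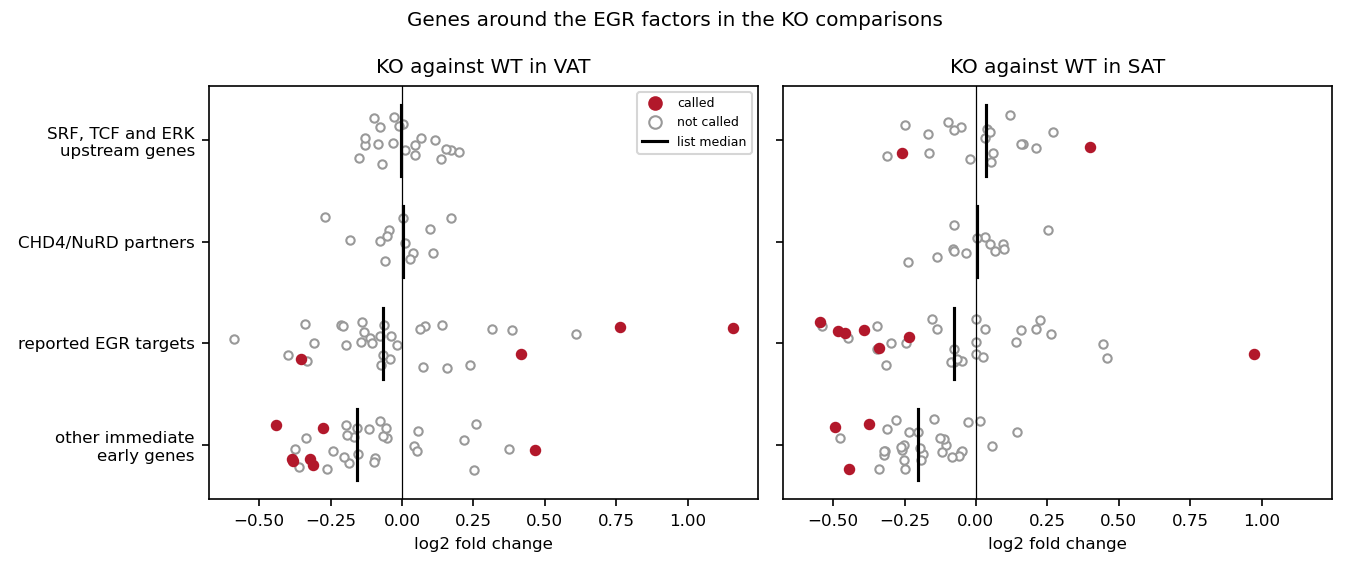
Log2 fold change of 4 lists of genes around the EGR factors, KO against WT in VAT and in SAT; points are genes, filled where called, and bars are list medians. Medians of other immediate early genes are -0.16 in VAT and -0.20 in SAT, and those of the SRF and CHD4/NuRD lists lie within 0.04 of 0.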

How the data were processed

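Adipose progenitor RNA was sequenced in 16 libraries. The authors deposited whole-number counts per gene symbol, which were used for all tests, and normalized signal values, each the count over a single factor per library (relative deviation at most 4.94e-10 above 50 counts). The submitters' processing notes name featureCounts, STAR, DESeq and FastQC and build mm10; no source used here gives versions, annotation or strand setting. Per the labels, the NEBNext Ultra kit and single reads were used.

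The tools were edgeR 4.0.16 and DESeq2 1.42.0, with limma 3.58.1 and the data.table package (1.17.8), under R 4.3.3. Genes kept by filterByExpr (16842 of 38720) were TMM-scaled and fitted with 1 coefficient per group over all 16 libraries (12 residual degrees of freedom, biological coefficient of variation 0.156). Adjusted p is Benjamini-Hochberg across the 16842 genes, with calls under 0.05. The SE is the absolute log2 fold change over the square root of F. CPM per kilobase used GENCODE vM21 exon lengths. The 27 date-like names were kept in totals and never named. Libraries with few counts of a gene, such as Egr3, Egr4 and Wt1 in some, carry the larger counting error. No 2 libraries of a group agreed within sampling noise (chi-square per degree of freedom of at least 12.7). Named genes were the members, Nr4a1, genes overlapping a member, up to 3 called genes with the smallest p per list and comparison, and the 3 genes most like each member by r of deviations in log2(CPM + 1). The members and lists were chosen with earlier results of these data known. The position of Egr1 and 1 gene that the rule names are not reported here. Alternatives were DESeq2, limma-voom, RLE scaling, other filters, only the compared groups, a replicate block and leaving out each library.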

Additional observations from a re-analysis of the deposited data

Results flagged for a closer look

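Of 20 groups of 4 libraries examined (5 members in 4 groups), 2 held a library whose gap to its nearest neighbour exceeded Dixon's 95% critical value, where chance gives about 1 in 20. Nab2 stood at 26.8 CPM in KO SAT replicate 3, with the next library at 20.2 CPM. Egr1 stood at 2096 CPM in KO VAT replicate 3, with the next at 2180 CPM. Neither gene was called by edgeR between the genotypes, and the cause was not tested.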

How the results depend on the processing

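Egr2 in KO SAT and Nab1 between the depots kept their calls and direction in every setting tried. DESeq2 called 1656 genes in KO SAT, 1238 in KO VAT and 519 in the interaction, against 992, 690 and 45 with edgeR; fitting only the 2 SAT groups called 509. Leaving out 1 library gave 469 to 1015 calls in KO SAT, 412 to 625 in KO VAT and 7 to 149 in the interaction. The lowest KO SAT counts came without KO SAT replicate 4 (469), 2 (579) or 3 (661), the lowest KO VAT counts without KO VAT replicate 4 (412), WT VAT replicate 1 (426) or 4 (455), and 149 without KO VAT replicate 3. Replicate numbers were not shown to pair the libraries: of 4 same-numbered pairs, deviations correlated above 0.1 in 0 for the genotypes in SAT, 3 in VAT, 3 for the depots in WT and 2 in KO. With the replicate block 873 genes were called in KO SAT and 611 in KO VAT; Mapk3, Rps6ka3 and Jund in KO SAT and Dusp1 in KO VAT were not among them (adjusted p from 0.0532 to 0.0637), and 3 other immediate early genes were lower in KO VAT. The interaction then called 14 genes, and 11 with the block nested in genotype. Fold changes of uncalled members reversed as follows. The Egr3 interaction was -0.11 with limma-voom and -0.11 with the nested replicate block, and ran from -0.16 to 0.47 with 1 library left out. Nab2 between depots in WT was 0.0010 with no filter and ran from -0.071 to 0.029. The other ranges with 1 library left out were -0.081 to 0.053 for Egr1 in KO SAT, -0.094 to 0.54 for Egr3 in KO SAT, -0.094 to 0.078 for Nab2 between depots in KO, -0.079 to 0.093 for the Nab2 interaction and -0.0056 to 0.13 for the Nab1 interaction. The cause was not tested. The lowest count of a member was 26, for Egr3 in WT SAT replicate 3; how far depth set the spread of Egr3 was not tested.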
